A study of Mus musculus with 8 samples.

Results

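The Bcl2 family genes described here are 10 genes that set the threshold for mitochondrial cell death, 3 anti-apoptotic and 7 pro-apoptotic. They were taken from the arrays as every non-control spot whose gene name was one of Bcl2, Bcl2l1, Mcl1, Bcl2l11, Bax, Bak1, Bbc3, Pmaip1, Bid or Bmf. That gave 12 probes for 10 genes, out of 39429 probes and 31829 gene names on the array. Bcl2l1 and Mcl1 had 2 probes each, and each probe was kept apart. The members were chosen by name and role, without a cut on their measured values, but with earlier results of these data known.

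Transcripts were measured on Agilent one-colour arrays in ovarian tumours of female C57BL/6JTgMISIIR-TAg mice, 1 tumour and 1 array per mouse. In 4 mice the tumour was collected 6 h after AZD1480, a JAK1 and JAK2 kinase inhibitor, at 30 mg/kg in a hypermellose and Tween 80 vehicle, and in the other 4 mice after that vehicle alone. All 8 mice carried SV40 T antigen driven by the MISIIR promoter, that of the Amhr2 receptor gene, and tumours were about 500 mm3 at treatment. T antigen is known to bind p53 and the retinoblastoma proteins. The transgene was shared by both groups, so no group shows the genes without it. The animals' ages are not given in the sources used here. The comparison asked whether the balance of survival and death genes differed shortly after JAK inhibition.

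In the intrinsic pathway of apoptosis, Bax and Bak1 form pores in the outer mitochondrial membrane that release cytochrome c. Bcl2, Bcl2l1 (Bcl-xL) and Mcl1 bind and restrain them, whereas BH3-only proteins such as Bcl2l11 (Bim), Bbc3 (Puma), Pmaip1 (Noxa), Bid and Bmf release that restraint or activate the effectors directly. Bcl2l1 and Mcl1 are well-known targets of STAT3 in tumour cells, and Bbc3, Pmaip1 and Bax are well-known targets of p53.

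The 60-base probes decide which part of each transcript was measured, and those of the members on which the account turns are shown here with the position of the whole probe on mm9. The Bcl2, upstream Bcl2l1 and Bcl2l11 probes are given whole and the others as 30 bases. Capitals mark AATAAA, the usual polyadenylation signal, searched on the probe strand. It was present in 2 of the 12 member probes and in 12.6% of all probes, and a match is a description of the letters only.
Bcl2, A_51_P380013, chr1:108608970-108609029, minus strand: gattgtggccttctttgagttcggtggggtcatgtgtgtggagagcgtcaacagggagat
Bcl2l1, A_52_P510877, chr2:152655185-152655244, minus strand: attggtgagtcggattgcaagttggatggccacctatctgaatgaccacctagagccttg
Bcl2l1, A_55_P1974877, chr2:152606404-152606463, minus strand: gtgcagttcagtAATAAAtggtgtctgtga
Mcl1, A_52_P93933, chr3:95465543-95465602, plus strand: tgcagcttctctagttagaaatgtatttct
Mcl1, A_51_P238786, chr3:95466855-95466914, plus strand: gctgcttggaaagatggctctcagcaaaat
Bax, A_55_P2137406, chr7:52717122-52717181, minus strand: tcctgggatgaatgggggaaggggaaaggc
Bcl2l11, A_51_P484880, chr2:127972893-127983988, plus strand: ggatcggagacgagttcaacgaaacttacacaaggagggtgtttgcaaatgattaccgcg
Bmf, A_55_P2029106, chr2:118354496-118354555, minus strand: ggtacagtttttAATAAAaccatttaaagc

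The 2 Bcl2l1 probes lie 48.8 kb apart on the genome. The gene is on the minus strand, so A_55_P1974877, which holds the polyadenylation hexamer, is the 3′-most of the pair and A_52_P510877 is the upstream one. The 2 Mcl1 probes lie 1.3 kb apart, with A_51_P238786 further 3′. The position given for the Bcl2l11 probe spans 11096 bases of genome, so its 60 bases cross an exon junction. Coding or untranslated position is not annotated in the array files.

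All 12 member probes were well above background on 8 of 8 arrays and saturated on 0, so all 12 were tested. The level of a probe on an array is its log2 processed intensity minus the 75th percentile of that array, and each difference is AZD1480 minus vehicle on that scale. In tumour tissue, a change in the share of a cell type and a change in RNA per cell cannot be told apart by these levels.

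One array stood apart before any gene was compared. AZD1480 replicate 1 had a mean correlation with the other arrays of 0.894, against 0.950 to 0.964 for the remaining 7, over all tested probes. Its mean log2 deviation from vehicle was -5.83 for 8 ciliated cell markers, -1.47 for 10 macrophage and monocyte markers and 2.69 for the 5 measured granulosa and luteal markers. On the granulosa and luteal list it was not alone, since vehicle replicates 1 and 3 were at 1.66 and 1.09. Each member is therefore also given without AZD1480 replicate 1, which stood apart over all probes. Of 12 epithelial markers looked up for the labelled tumour type, 12 passed the filter on dim probes, which does not by itself settle that type. Their mean levels in vehicle tumours ran from -6.27 (Cldn4) to 5.15 (Krt18), so some were dim. The mean log2 deviation of the list was uneven, at 1.13, -1.13, 0.66 and -0.65 in vehicle replicates 1 to 4. Of these 12, 11 were below 0 in AZD1480 minus vehicle (median -0.69), 1 of them at a limma unadjusted p under 0.05, and their part in the values of the members was not tested.

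None of the 12 member probes passed the test between AZD1480 and vehicle tumours, which was limma with Benjamini-Hochberg adjustment over all 28340 probes tested. Neither did any other probe, so 0% of all probes were called (smallest adjusted p = 0.732). At a limma unadjusted p under 0.05 there was 1 member probe, Bax, against 3.59% of all probes (1.99% higher and 1.61% lower). At least 2-fold apart were 0 of the 12, against 6.59% of all probes. The 12 differences ran from -0.10 to 0.48 and 10 of them were above 0, against 57.9% of all probes. Without AZD1480 replicate 1, 9 of 12 were above 0, against 55.0% of all probes, and 1, Bmf, had a limma unadjusted p under 0.05, against 4.10% of all probes.

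**Figure D1:**
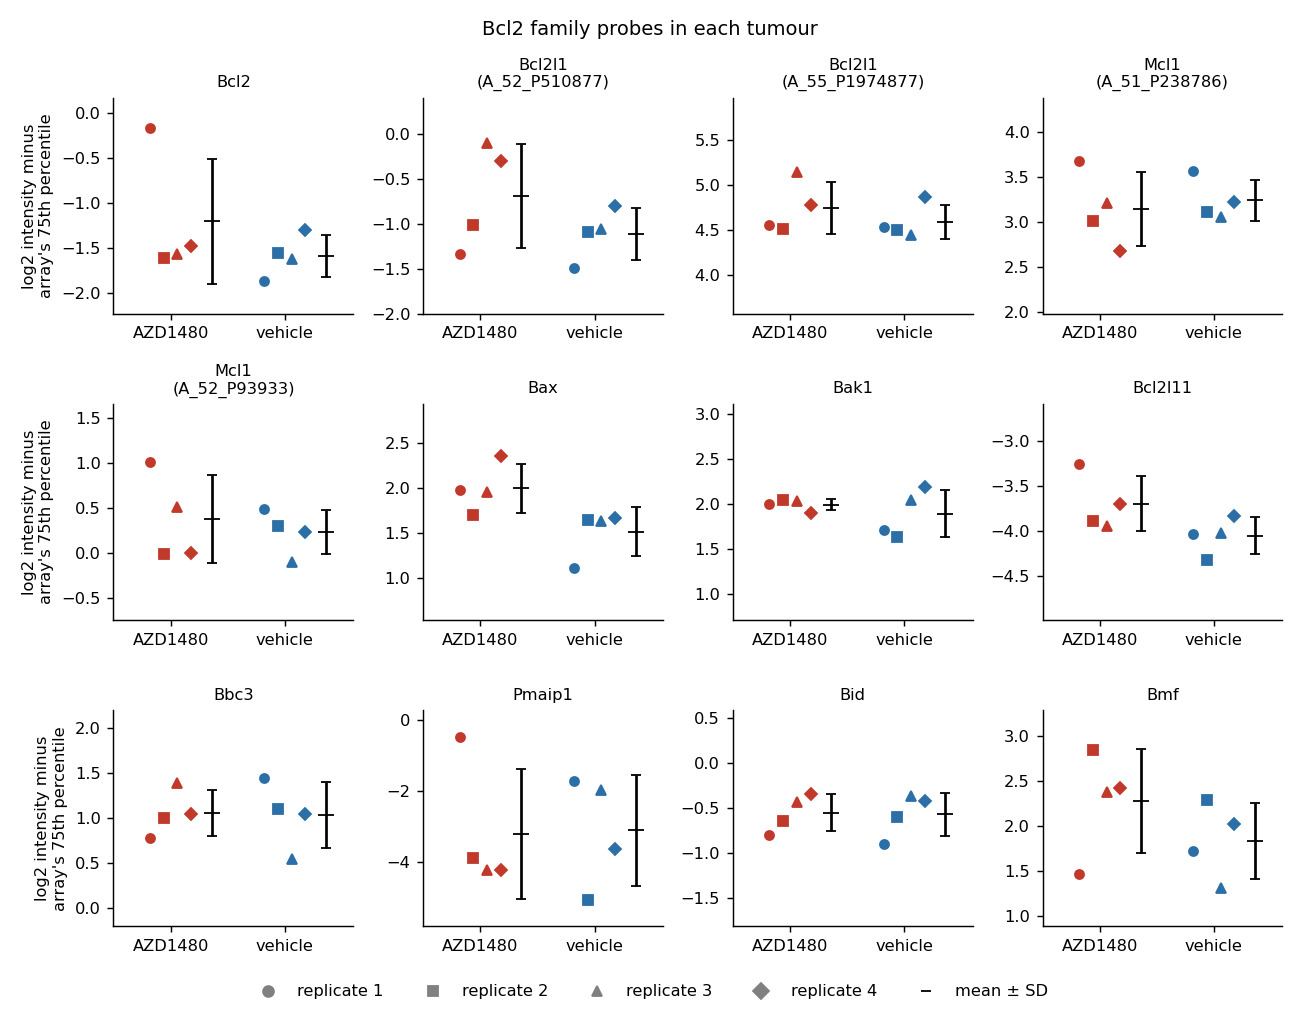
Level of each member probe in each tumour (log2 processed intensity minus the array's 75th percentile), AZD1480 tumours in red and vehicle tumours in blue, with the mean ± SD of 4 arrays in black. Bax is the panel whose groups do not overlap, at 1.70 to 2.36 in AZD1480 tumours against 1.11 to 1.67 in vehicle tumours, and Pmaip1 has the widest spread; y axes differ between panels.

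Among the anti-apoptotic genes, Bcl2, the founding member, stood apart in 1 tumour. Its levels were -0.16, -1.62, -1.57 and -1.47 in AZD1480 replicates 1 to 4, against -1.87, -1.56, -1.62 and -1.30 in vehicle replicates 1 to 4. AZD1480 replicate 1 was the highest of all 8, and the other 3 AZD1480 tumours lay inside the vehicle range. The mean was -1.21 ± 0.70 in AZD1480 tumours and -1.59 ± 0.23 in vehicle tumours (SD, n = 4 each). The difference of 0.38 (95% interval -0.41 to 1.18) had a limma adjusted p of 0.954, and without AZD1480 replicate 1 it was 0.03 (-0.37 to 0.44).

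Bcl2l1, which encodes Bcl-xL, was read by both of its probes with the same sign but unequal size. The upstream probe was at -1.34, -1.01, -0.11 and -0.31 in AZD1480 replicates 1 to 4, against -1.50, -1.09, -1.06 and -0.80 in vehicle replicates 1 to 4. The 3′-most probe was at 4.55, 4.51, 5.14 and 4.78 in the AZD1480 tumours, against 4.54, 4.50, 4.44 and 4.87 in the vehicle tumours. On both probes AZD1480 replicate 3 was the highest array, and the groups overlapped. The differences were 0.42 (95% interval -0.29 to 1.13) upstream and 0.16 (-0.29 to 0.61) at the 3′ end, with limma adjusted p of 0.954 and 0.955.
Without AZD1480 replicate 1 the upstream difference was 0.63 (-0.00 to 1.27) and the 3′ difference 0.22 (-0.25 to 0.70). Without AZD1480 replicate 3 they were 0.23 and 0.03. Within slides 1 and 2 the upstream difference was 0.12 and 0.72, and the 3′ difference 0.01 and 0.31. Levels of the 2 probes cannot be set against each other, since probes differ in brightness for the same amount of RNA.

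Mcl1, whose short-lived protein holds Bak1 and Bim in check, had differences of opposite sign on its 2 probes. The 3′-most probe was at 3.68, 3.02, 3.21 and 2.68 in AZD1480 replicates 1 to 4, against 3.57, 3.11, 3.05 and 3.23 in vehicle replicates 1 to 4. The upstream probe was at 1.02, -0.01, 0.52 and -0.00 in the AZD1480 tumours, against 0.49, 0.30, -0.10 and 0.24 in the vehicle tumours. On both, AZD1480 replicate 1 was the highest of all arrays and the groups overlapped. The differences were -0.09 (95% interval -0.65 to 0.46) and 0.15 (-0.47 to 0.77), with limma adjusted p of 0.974 and 0.966.
Both were below 0 without AZD1480 replicate 1, at -0.27 (-0.74 to 0.20) and -0.06 (-0.57 to 0.44). As a fold, the interval of the 3′-most probe over all arrays ran from 0.637 to 1.38.

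Of the effectors, Bax had the largest difference of the 12 probes. Its levels were 1.98, 1.70, 1.96 and 2.36 in AZD1480 replicates 1 to 4, against 1.11, 1.65, 1.64 and 1.67 in vehicle replicates 1 to 4. Every AZD1480 tumour was above every vehicle tumour, which held for 1.35% of all probes in that direction; no member had the opposite order, which 1.24% of all probes had. The gap between the lowest AZD1480 tumour and the highest vehicle tumour was narrow, and vehicle replicate 1 was far below the rest of its group. The mean was 2.00 ± 0.27 in AZD1480 tumours and 1.52 ± 0.27 in vehicle tumours (SD, n = 4 each). The difference of 0.48, a 1.40-fold change with a 95% interval of 1.00 to 1.95, had a limma unadjusted p of 0.0488 and an adjusted p of 0.954. It was 0.49 without AZD1480 replicate 1 (limma adjusted p = 0.970), 0.46 within slide 1 and 0.51 within slide 2. It was 0.35 without vehicle replicate 1, the lowest, and 0.36 without AZD1480 replicate 4, the highest, and in both cases missed an unadjusted p of 0.05. Of 20 alternative settings, 16 gave an unadjusted p of 0.05 or more.

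Bak1, the other pore-forming effector, had the smallest spread of the 12 probes. It was at 2.00, 2.05, 2.03 and 1.91 in AZD1480 replicates 1 to 4, against 1.71, 1.64, 2.04 and 2.19 in vehicle replicates 1 to 4. The AZD1480 tumours lay within the vehicle range, with an SD of 0.063 against 0.26. The difference was 0.10 (95% interval -0.30 to 0.50, limma adjusted p = 0.965). It was 0.35 within slide 1 and -0.15 within slide 2.

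**Figure D2:**
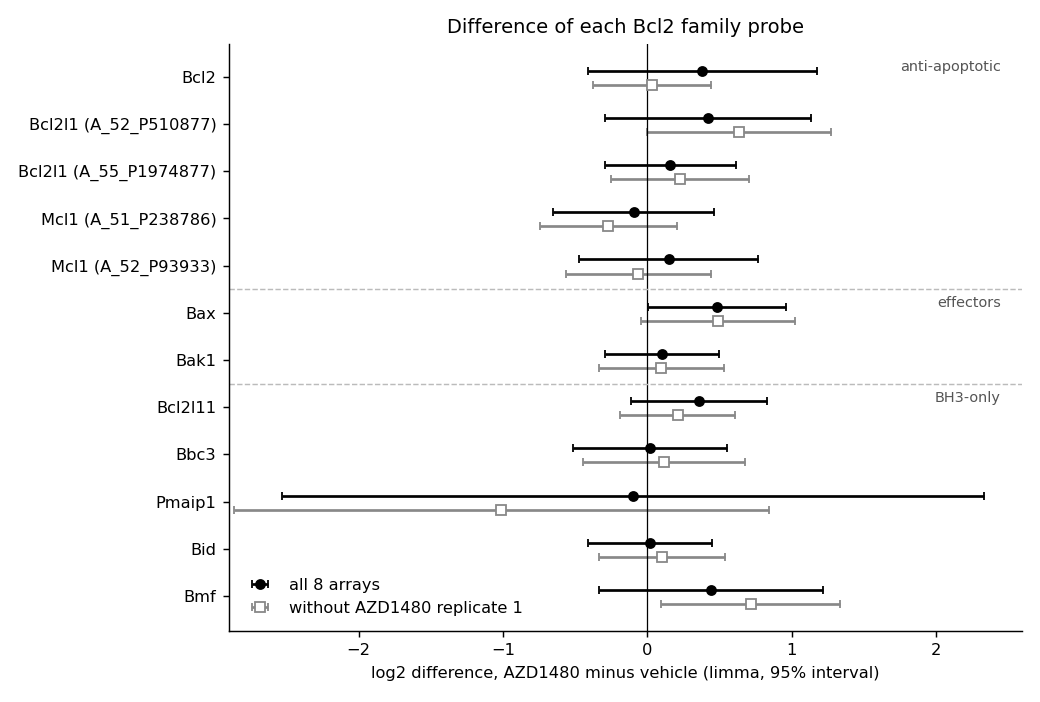
Log2 difference of each member probe, AZD1480 minus vehicle, with limma's 95% interval, over all 8 arrays (filled) and without AZD1480 replicate 1 (open). Over all arrays only the Bax interval lies above 0, with its lower end at 0.00 after rounding, and none of the 12 passed after adjustment over all probes; the Pmaip1 interval spans -2.54 to 2.33.

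The BH3-only genes were mixed. Bcl2l11, which encodes Bim and is induced by FoxO factors when growth factor signalling is lost, had a dim probe, at processed intensities of 115 to 456 units. It was at -3.26, -3.89, -3.94 and -3.70 in AZD1480 replicates 1 to 4, against -4.04, -4.33, -4.03 and -3.83 in vehicle replicates 1 to 4. AZD1480 replicate 1 was again the highest array, and the groups overlapped. The difference of 0.36 (95% interval -0.11 to 0.83) had a limma adjusted p of 0.954, and it was 0.21 (-0.19 to 0.61) without AZD1480 replicate 1. Within slide 1 it was 0.61 and within slide 2 it was 0.11.

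Bmf, a BH3-only protein known for its tie to the actin cytoskeleton and loss of cell attachment, had the second largest difference. It was at 1.46, 2.84, 2.38 and 2.43 in AZD1480 replicates 1 to 4, against 1.72, 2.29, 1.31 and 2.02 in vehicle replicates 1 to 4. The 3 AZD1480 tumours other than replicate 1 were above every vehicle tumour, while replicate 1 was below 3 of the 4 vehicle tumours. The difference was 0.44 (95% interval -0.33 to 1.22, limma adjusted p = 0.954). Without AZD1480 replicate 1 it was 0.72, with an interval of 0.09 to 1.34, and still did not pass over all probes (limma adjusted p = 0.970). It was 0.25 without AZD1480 replicate 2, the highest, and 0.27 without vehicle replicate 3, the lowest. Within slide 1 it was 0.15 and within slide 2 it was 0.74.

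Bbc3 and Bid had differences near 0. Bbc3, the p53 target Puma, was at 0.78, 1.00, 1.40 and 1.05 in AZD1480 replicates 1 to 4, against 1.45, 1.10, 0.55 and 1.05 in vehicle replicates 1 to 4. Its difference was 0.02 (95% interval -0.51 to 0.55, limma adjusted p = 0.994), at -0.38 within slide 1 and 0.42 within slide 2. Bid, which links death receptors to mitochondria once caspase 8 cleaves it, was at -0.80, -0.65, -0.44 and -0.34 in the AZD1480 tumours, against -0.91, -0.60, -0.37 and -0.43 in the vehicle tumours.
In both groups Bid was lowest in replicate 1, and the ranges nearly coincided. Its difference of 0.02 had a 95% interval of -0.41 to 0.45, or 0.753-fold to 1.36-fold (limma adjusted p = 0.994).

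Pmaip1, which encodes Noxa, varied most between tumours. It was at -0.48, -3.89, -4.24 and -4.24 in AZD1480 replicates 1 to 4, against -1.74, -5.08, -1.99 and -3.63 in vehicle replicates 1 to 4. The highest and the lowest array were 24.3-fold apart, with one in each group. Its SD within groups, 1.70, was at percentile 95.9 of all tested probes, where the other 11 member probes ranged from percentile 12.3 (Bak1) to 61.2 (Bcl2). The difference was -0.10 with a 95% interval of -2.54 to 2.33 (limma adjusted p = 0.994), so the data bound it to within 0.173-fold and 5.03-fold only. It was 1.23 within slide 1, -1.43 within slide 2 and -1.01 (-2.86 to 0.84) without AZD1480 replicate 1.

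The 3 tumours highest in Pmaip1 were also the 3 highest in granulosa and luteal markers. The mean deviation of that list was 2.69, -1.50, -1.52 and -1.09 in AZD1480 replicates 1 to 4, against 1.66, -1.19, 1.09 and -1.56 in vehicle replicates 1 to 4. AZD1480 replicate 1 and vehicle replicates 1 and 3 were thus apart from the other 5 in both. Of the 10 listed markers 5 were measured, and Amh, Fshr, Cyp19a1, Cyp11a1 and Lhcgr did not pass the filter on dim probes. The summed level of the list, given as the mean of its genes, ranged from -2.09 to 2.11 in AZD1480 tumours and from -2.14 to 1.08 in vehicle tumours.
Inha, the inhibin alpha subunit of granulosa cells, was at 4.54, -3.00, -3.55 and -2.69 in the AZD1480 tumours, against 2.11, -2.87, 1.65 and -4.07 in the vehicle tumours. Amhr2, whose promoter drives the transgene, was at 6.93, 0.72, 0.55 and -0.66 in the AZD1480 tumours, against 5.50, 0.66, 1.52 and 0.17 in the vehicle tumours. Star, the steroidogenic cholesterol carrier, was also highest in these 3 tumours. Inhba and Foxl2 of the same list did not share the order. Inhba was at -2.17, -6.56, -5.82 and -3.56 in the AZD1480 tumours, against -3.64, -4.99, -1.41 and -5.02 in the vehicle tumours, and Foxl2 was between 3.36 and 3.76 on all arrays. Outside the list, Cish, a gene known to be induced through STAT factors, was also highest in these 3 tumours. It was at -0.20 in AZD1480 replicate 1 and at -0.69 and -1.41 in vehicle replicates 1 and 3. The order was thus not particular to granulosa and luteal markers, and other marker lists were looked up as well. The same 3 tumours were the 3 lowest in Bmf. The part of these marker levels in the Pmaip1 and Bmf values was not tested.

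**Figure D3:**
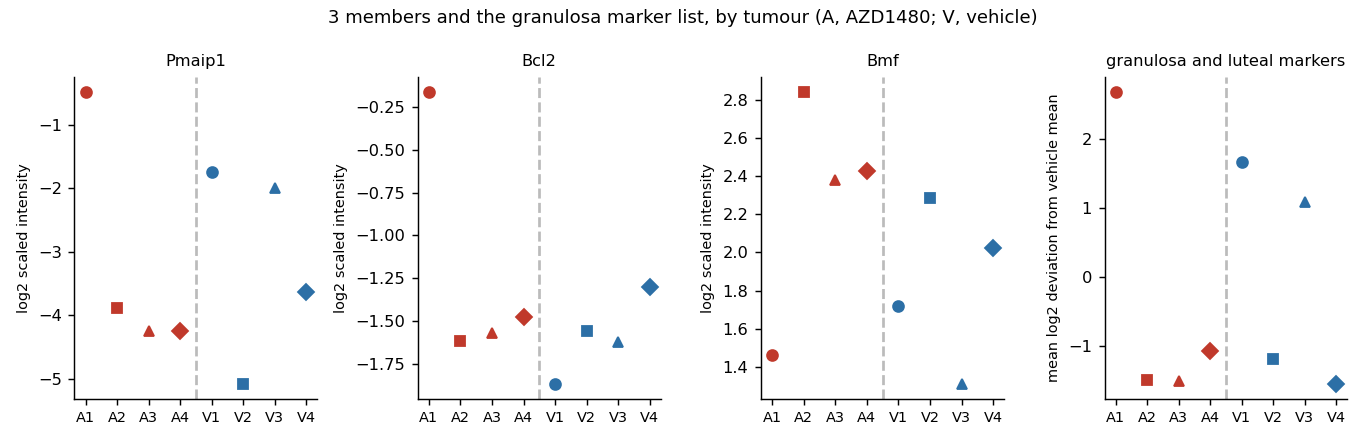
Levels of Pmaip1, Bcl2 and Bmf and the mean log2 deviation of 5 granulosa and luteal markers from their vehicle mean, for AZD1480 tumours (A1 to A4, red) and vehicle tumours (V1 to V4, blue). A1, V1 and V3 are highest in Pmaip1 and in the markers and lowest in Bmf, whereas Bcl2 is high in A1 alone.

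Anti-apoptotic members were then set against pro-apoptotic ones by their medians, as a description without a test. The median difference was 0.16 over the 5 anti-apoptotic probes, 0.29 over the 2 effectors and 0.02 over the 5 BH3-only probes, beside 0.06 over all probes tested. Above 0 were 4 of 5 anti-apoptotic and 6 of 7 pro-apoptotic probes. Without AZD1480 replicate 1 these counts were 3 of 5 and 6 of 7, and the medians were 0.03 (anti-apoptotic) and 0.11 (pro-apoptotic, both kinds), beside 0.03 over all probes.

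In each tumour, the median deviation of the anti-apoptotic probes minus that of the pro-apoptotic probes was 0.33, -0.23, 0.14 and -0.12 in AZD1480 replicates 1 to 4. In vehicle replicates 1 to 4 it was 0.06, 0.05, -0.26 and 0.13. Both signs occurred in both groups, and the AZD1480 tumours held both the highest value and 1 of the 2 lowest. The effectors alone had a positive median in 4 of 4 AZD1480 tumours, from 0.17 to 0.42, against -0.30, -0.06, 0.13 and 0.22 in the vehicle tumours. With 2 probes this median is the mean of Bax and Bak1, so it holds the Bax values given above. Deviations are taken from the vehicle mean, so vehicle values lie around 0 by construction. How many of all probes had the same pattern was not counted.

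**Figure D4:**
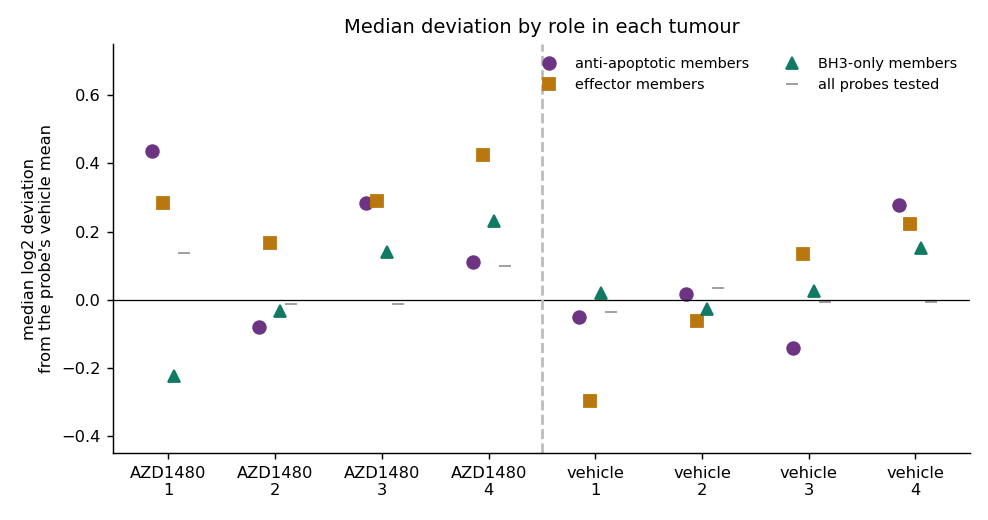
Median log2 deviation from each probe's vehicle mean in every tumour, for the 5 anti-apoptotic, 2 effector and 5 BH3-only probes and for all tested probes. The effectors lie between 0.17 and 0.42 in the 4 AZD1480 tumours and between -0.30 and 0.22 in the vehicle tumours. For each role the medians of the groups overlap.

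**Figure D5:**
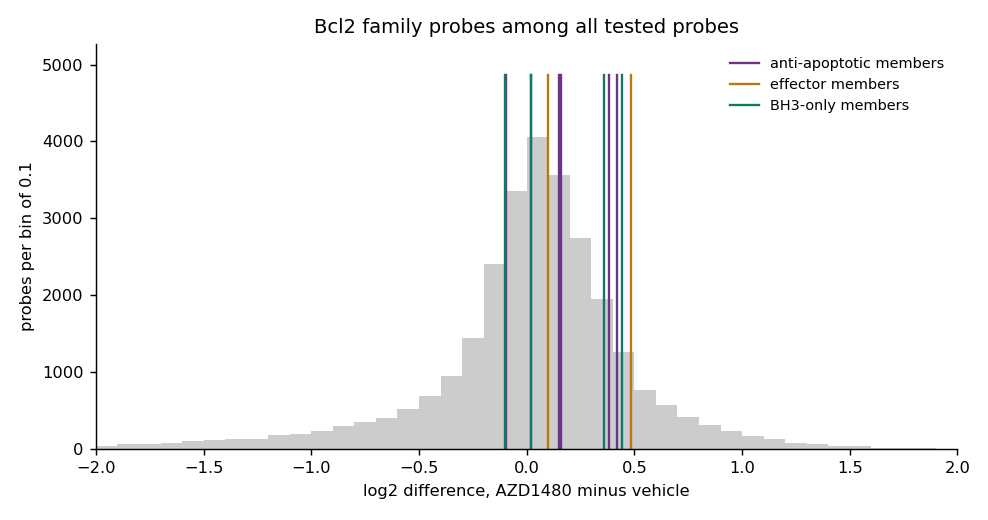
Number of tested probes by log2 difference, AZD1480 minus vehicle, in bins of 0.1 (grey), with the 12 member probes as vertical lines at their own difference. The members run from -0.10 to 0.48, inside the bulk of the 28340 probes, whose median is 0.06; differences beyond 2 either way are not drawn.

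Other genes of the pathway likewise gave 0 calls by limma over all probes, and the count at an unadjusted p under 0.05 is given for each list at the brightest tested probe of a gene. Of 16 further Bcl2 family genes 13 were tested, 8 above 0 and 5 below, with 0 at an unadjusted p under 0.05. The hypoxia-inducible Bnip3 was at 0.76 ± 0.38 (limma's moderated SE) and the survival gene Bcl2l2 (Bcl-w) at 0.49 ± 0.30, and without AZD1480 replicate 1 they were at 0.49 and 0.29. Bcl2a1c and Bcl2a1d, survival genes of blood cells, were at -0.75 ± 0.42 and -0.68 ± 0.45, and at -0.31 and -0.20 without AZD1480 replicate 1. These near-identical copies may share signal, and 9 of 10 macrophage and monocyte markers were below 0 (median -0.57, and -0.14 without that array), 3 of them at an unadjusted p under 0.05. The summed level of those markers ranged from -2.05 to -0.53 in AZD1480 tumours and from -0.79 to -0.48 in vehicle tumours, and their part in the Bcl2a1 values was not tested.

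Downstream of the mitochondria, the 12 apoptosome, caspase and nuclease genes had a median of 0.09, with 7 above 0, 5 below and 0 at an unadjusted p under 0.05. Dffa, the inhibitor of the apoptotic nuclease, was at 0.28 ± 0.14 and the nuclease Dffb at 0.57 ± 0.31 (0.36 without AZD1480 replicate 1). Of 8 tested inhibitor of apoptosis genes 6 were below 0 (median -0.12), with Xiap, a direct caspase inhibitor, at -0.29 ± 0.17 and Birc5 (survivin) at 0.26 ± 0.17 (0.16 without that array). Among 11 death receptor genes the ligand Tnfsf10 (TRAIL) was at -1.71 ± 0.95, and at -0.65 without AZD1480 replicate 1, and Cflar, a decoy of caspase 8, was at 0.34 ± 0.26. Both of these lists had 0 genes at an unadjusted p under 0.05.

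Upstream, 12 genes known to be induced through STAT factors had a median of -0.17, and of -0.48 without AZD1480 replicate 1. Of the 12, 8 were below 0, against 42.1% of all probes, and 4 were lower at a limma unadjusted p under 0.05, against 1.61% of all probes. The transcription factor gene Cebpd was at -1.34 ± 0.25, Stat3 itself at -0.90 ± 0.27 and the feedback inhibitor Socs3 at -0.84 ± 0.26, with limma adjusted p of 0.949 to 0.954. In the other direction, the signalling inhibitor Socs2 was at 0.87 ± 0.47 and the kinase gene Pim1 at 0.67 ± 0.40. These 2 were at 0.73 and 0.48 without AZD1480 replicate 1, and Cebpd, Stat3 and Socs3 at -1.41, -0.80 and -0.77. Bcl2l1 and Mcl1, from the same group of STAT3 targets, had the differences of -0.09 to 0.42 given above. All 12 interferon-induced genes were below 0 (median -1.62, and -1.10 without AZD1480 replicate 1), and 8 were lower at an unadjusted p under 0.05, beside the same shares of all probes. The STAT-induced and interferon lists were chosen with earlier results of these data known, so their counts beside all probes are a description only. Of 13 transcription factors known to act on Bcl2 family genes, 6 were above 0 and 7 below, with 1, Stat3, at an unadjusted p under 0.05. Foxo3, on a dim probe with mean levels of -5.46 in AZD1480 and -5.99 in vehicle tumours, was at 0.53 ± 0.32. Foxo1 was at -0.49 ± 0.30. Without AZD1480 replicate 1, Foxo3 and Foxo1 were at 0.32 and -0.24.

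The promoter sequences of RefSeq (GRCm38.p6) covered 9 of the 10 members in 16 windows, each from 250 bases before to 50 after a gene's start. The STAT motif TTCNNNGAA, which reads the same on both strands, was found in 0 of the 16 windows and in 8.30% of all 32851 windows. Its absence says only that these letters are not in these windows. For comparison, 1 match in the window of Socs3 lies at position -154 relative to the start, and its 9 bases are in capitals in the piece shown here, on GRCm38.p6.
Socs3, chr11:117969501-117969530, minus strand: gaaaccagccTTCTTAGAAgggaggggggg

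The genes most like Bax across the 8 arrays, by Pearson correlation among 18952 genes, were Gm5513 (r = 0.983), D730040F13Rik (r = 0.972) and the mitochondrial seryl-tRNA synthetase gene Sars2 (r = 0.962). These are descriptions over 8 tumours that share slides and array scaling, and the highest values among so many genes. The 2 probes of Mcl1 correlated at r = 0.843 and those of Bcl2l1 at r = 0.832 over the same 8 tumours. By Spearman's rank correlation the values were 0.786 for Mcl1 and 0.595 for Bcl2l1.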

How the data were processed

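Total RNA of 8 tumours, 4 AZD1480 and 4 vehicle, was labelled with Cy3. Agilent Feature Extraction 9.5.3 read the scans (submitters' processing notes). Per the file headers, the deposited processed intensity was spatially detrended within each array with background correction off and surrogates for dim spots. No scaling across arrays had been applied to it. A second deposited file holds the authors' log2 values with equal quantiles across arrays, centred at 8.36 with its offset not given in the sources used here, which served as an alternative.

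Log2 processed intensity was scaled by each array's 75th percentile over 39429 non-control probes. Spots flagged as outliers were left out. Probes well above background on at least 4 of 8 arrays were tested with limma 3.58.1 in R 4.3.3 (two-sided; treatment was the single term), adjusting over 28340 probes at 0.05. In 10 of these probes, none a member, flagged spots left an array out of the fit. The procedure was run on simulated data in which the noise of a probe had the same spread on every array. That run therefore does not cover an array that stands apart.

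The 75th percentile was 4368 to 5370 units on slide 1 and 1492 to 2615 on slide 2, and 66.9% to 76.4% of spots were well above background. Each slide held 2 arrays per group. The number of arrays limits the precision.

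Members and lists were chosen with earlier results of these data known. Text names all members, up to 3 genes per direction with the smallest p in a described list, and the 3 genes most correlated with the member of smallest p. A RefSeq accession named 26055 probes, the file's name the rest. Same-numbered arrays did not all deviate together (r = 0.349, 0.371, 0.144 and -0.060), so replicate number was not treated as pairing.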

Additional observations from a re-analysis of the deposited data

Results flagged for a closer look

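In groups of 4 tumours, a tumour was singled out when its gap to the nearest other tumour as a share of the group's range exceeded Dixon's 95% critical value, which chance gives in about 1 in 20 groups. Of 24 member groups 3 met this. Bcl2 in AZD1480 replicate 1 was at -0.16, with the other 3 between -1.62 and -1.47 (gap over range 0.903). Pmaip1 in AZD1480 replicate 1 was at -0.48, with the others between -4.24 and -3.89 (0.905). Bax in vehicle replicate 1 was at 1.11, with the others between 1.64 and 1.67 (0.949). Over all tested probes 10.6% of AZD1480 groups met the same criterion, 70.8% of them through replicate 1, and 4.95% of vehicle groups did.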

How the results depend on the processing

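Under 20 alternatives limma called 0 probes over the whole table and 0 member probes (lowest member adjusted p 0.638), with 619 to 2414 probes at an unadjusted p under 0.05 (1018 with the settings used above). Of 238 member values, 216 kept their direction. With the replicate block every difference was unchanged, as the groups are balanced (Bax 0.48, unadjusted p = 0.0590, adjusted p = 0.806), and 2 of 4 numbers matched best in both directions. Signs turned for Pmaip1 with normexp (0.024), for Bbc3 (-0.031) and Bid (-0.033) with median scaling, and for Bid with array weights (-0.0097). Within slide 1 they turned for Mcl1's 3′-most probe (0.0073), Bbc3 (-0.38) and Pmaip1 (1.23), and within slide 2 for Bcl2 (-0.060) and Bak1 (-0.15). The BH3-only median was 0.17 with array weights and turned to -0.031 with median scaling. Leaving out 1 array gave that median 0.042 to 0.36, the anti-apoptotic median 0.034 to 0.28, the effector median 0.19 to 0.37, Bax 0.35 to 0.58, Bmf 0.25 to 0.72, Bcl2 0.034 to 0.52, Bcl2l1 0.23 to 0.63 upstream and 0.027 to 0.25 at the 3′ end, Bcl2l11 0.21 to 0.44, Bak1 0.014 to 0.20, Pmaip1 -1.01 to 0.36, Mcl1 -0.27 to 0.060 and -0.063 to 0.28, Bbc3 -0.14 to 0.16 and Bid -0.091 to 0.10. The cause of these shifts was not tested.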
